A study of Danio rerio with 26 samples.

Results

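Female and male zebrafish livers were compared by RNA sequencing over 3 exposures, with 6 female and 6 male liver libraries, which are 12 of the 26 libraries of the series. The libraries were taken by the sex, tissue and exposure given in their labels, and no measured value chose them. The fish (Danio rerio) were wild type, of the AB strain with short fins, and their age is not given in the sources used here. Alcohol-exposed females and alcohol-exposed males were kept for 9 weeks in water with 0.5% ethanol and moved to a fresh tank daily. Control females and control males were moved in the same way without ethanol. Withdrawal females and withdrawal males had stopped the exposure, for a time that is not given in the sources used here. Each of these 6 groups had 2 liver libraries. Control and alcohol fish were housed by sex in tanks of 30 and were paired for breeding in the later weeks. Tissue was pooled within groups, and nothing states that the 2 libraries of a group came from separate fish. The p-values below therefore rest on how far these libraries differ from one another, and that spread may be technical. Within an exposure, a difference between tanks or pools could then not be told apart from one between the sexes.

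The liver of egg-laying vertebrates differs strongly between the sexes. Under estrogen the female liver makes vitellogenins, the precursors of egg yolk, and egg envelope proteins, and releases them into the blood for uptake by the growing oocytes. The male liver carries the same genes and normally expresses them weakly, and it can be induced to make them by estrogens. The liver also breaks ethanol down, through alcohol and aldehyde dehydrogenases.

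The data are abundances of 57918 Ensembl transcripts in TPM, which gives the share of a transcript among all transcript copies of a library, per length. The tables list transcripts by identifier and pair them with no gene name, and the reference tables used here list genes only. No name or role is therefore given to a transcript, and the lists of vitellogenins, liver pathways and markers of other cell types could not be read. Whether the libraries carry the defining markers of liver was for the same reason not tested. TPM keeps no read number, so the depth of each library is unknown. A value of exactly 0 can be a failed estimate and is described as listed at 0.

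The 2 control male livers stood apart from the other 10 on the first principal component, at 150 and 157.6 against 18.8 or less. Some results below are therefore also given without the control livers. The calls within single exposures, the test of changes with exposure, the classes of abundance and the shares of variation were not. The 2 libraries of a group correlated with r between 0.947 and 0.982 over the 21158 tested transcripts. The control female pair was the least alike, with 365 transcripts at least 4-fold apart, against 68 in alcohol and 86 in withdrawal females. In males these numbers were 194 in control, 247 in alcohol and 145 in withdrawal pairs.

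Over the 3 exposures, 2381 transcripts were higher and 2052 lower in female than in male livers, and the largest differences lay mostly on the female side. Of the transcripts higher in females, 65 differed by at least 16-fold, 25 by at least 64-fold and 11 by at least 1024-fold. Of those lower in females, 15 differed by at least 16-fold, 1 by at least 64-fold and none by 256-fold. In withdrawal livers alone the female side was the smaller, with 514 higher and 855 lower at 4-fold and 95 higher and 122 lower at 16-fold, and it was the larger from 64-fold on (33 higher and 25 lower). Differences below 2-fold made up the larger share on both sides, since 975 of the higher and 936 of the lower transcripts reached 2-fold.

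These calls come from limma on log2(TPM + 1), with sex and exposure as additive terms, at a Benjamini-Hochberg adjusted p below 0.05. They cover 21% of the tested transcripts, with 11.3% higher and 9.7% lower in females, and 7712 transcripts had an unadjusted p below 0.05. The log scale with 1 added understates folds of transcripts of low abundance. In bulk tissue, fewer cells of a type and less RNA per cell cannot be told apart. The count of higher transcripts was 1524 without the alcohol livers, and 1668 without the control livers, where 1964 were lower. When the 2 libraries of a group were averaged to 1, which leaves 6 libraries and 2 residual degrees of freedom, limma called 29 transcripts higher and 4 lower in females at an adjusted p below 0.05, and 1862 had an unadjusted p below 0.05. All 33 were also called with 12 libraries.

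**Figure D1:**
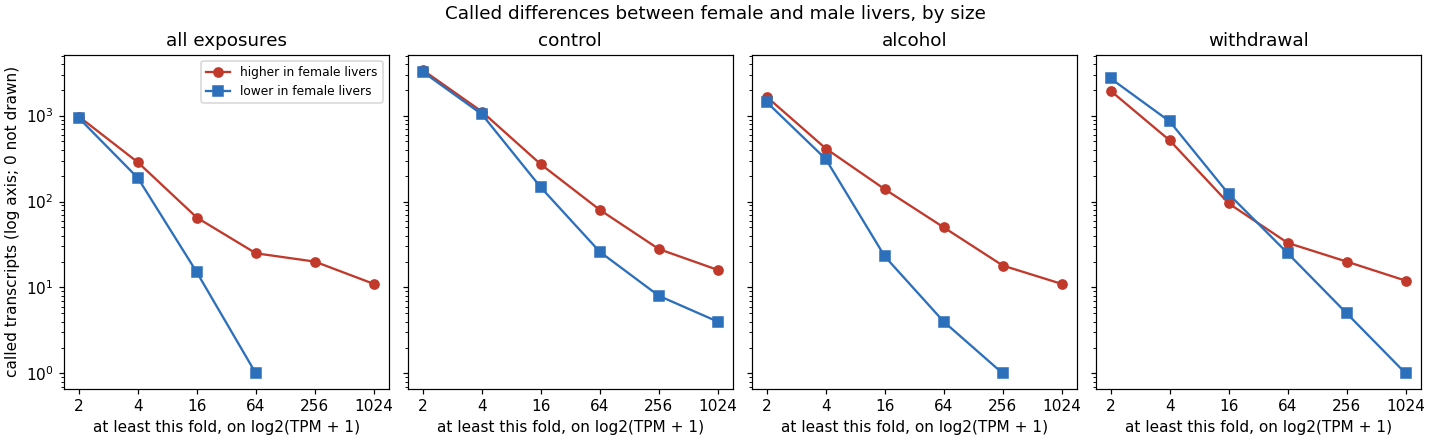
Number of transcripts called higher (circles) and lower (squares) in female livers (vertical log axis, transcripts) that reach at least the fold on the horizontal axis, over all exposures and in each exposure. At 1024-fold the panel over all exposures holds 11 transcripts on the female side, where the lower series ends at 64-fold with 1 transcript.

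A reading without a model gave fewer transcripts. The 6 female values all lay above the 6 male values for 724 transcripts and all below them for 819, together 7.29% of those tested. Limma, on the same values, had called 708 of the 724 and 791 of the 819. The sex difference had the same sign in each exposure for 2131 of the 2381 transcripts called higher and for 1919 of the 2052 called lower. The additive fit counts a changing sex difference as spread, so its calls favour the same sign and these counts are a description. With each exposure tested alone by limma at an adjusted p below 0.05, 544 transcripts were higher and 536 lower in females in all 3 exposures.

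The transcripts behind these calls filled very different shares of the 2 sexes' RNA. Transcripts called higher in females held 28.9% to 44.2% of all TPM in the 6 female livers, against 5.33% to 7.81% in the 6 male livers. Transcripts called lower in females held 14.2% to 23.2% in female livers, against 40.1% to 46.9% in male livers. Because the calls chose these transcripts, the shares describe how much RNA they stand for and are no test. Among the 20 most abundant transcripts of female livers, 10 were called higher in females, 5 lower and 5 in neither direction. Among the 20 most abundant of male livers, none was called higher in females, 12 were called lower and 8 in neither direction. The lists shared 10 transcripts. Each list was chosen by level in the livers of its own sex, which favours transcripts higher in that sex. These counts are therefore a description. Among the 183 transcripts that averaged above 1000 TPM over all livers, 21.9% were called higher and 21.3% lower in females.

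**Figure D2:**
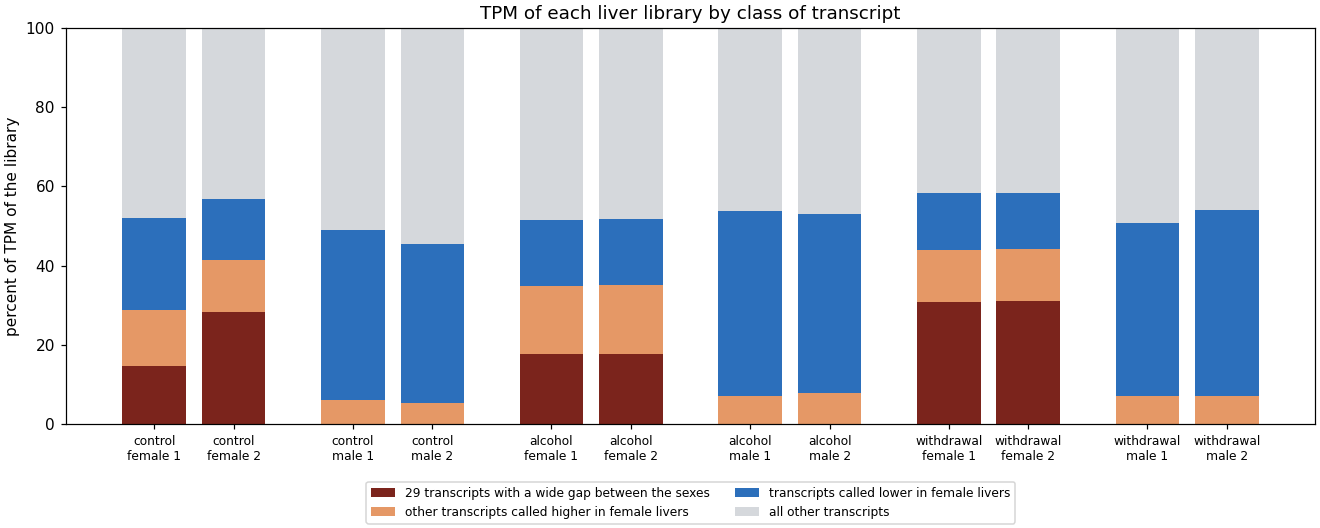
Percent of the deposited TPM of each liver library (vertical axis, 1 bar per library, females left of males in each exposure) held by classes of transcripts. The 29 transcripts with a wide gap between the sexes fill 14.7% to 31% of each female bar and cannot be seen in the male bars, where they hold 0.0073% or less.

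The concentration of RNA in few transcripts did not pass the test between the sexes. The top 10 transcripts by TPM held 28.7% ± 5.83 of TPM in female and 29.5% ± 2.67 in male livers (SD, n = 6 each; exact two-sided permutation of sex within exposure, p = 0.62, adjusted 0.62). The top 100 held 62.6% ± 2.45 in female and 59.07% ± 3.35 in male livers (SD, n = 6 each), with an exact p of 0.0278 that became 0.111 after adjustment over the 4 measures tested. The top 1000 held 89.5% ± 1.33 in female and 89.1% ± 2.18 in male livers (SD, n = 6 each; exact p = 0.5, adjusted 0.62). Female livers had 14880 ± 1089 transcripts at 1 TPM or more and male livers 14310 ± 1746 (SD, n = 6 each; exact p = 0.306, adjusted 0.611). By library these were 14640 and 12792 in control females and 11611 and 12762 in control males. Alcohol and withdrawal livers had 14515 to 15807. The part of these lower numbers in the calls within control livers was not tested. The smallest p that these arrangements of the labels can give is 0.00926.

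The balance of the 2 directions differed between classes of abundance and with the normalisation. In the class of 341 transcripts that averaged 100 to 300 TPM over the 12 livers, 31 were higher and 107 lower in females (9.09% and 31.4%), with a median log2 difference of −0.48. In the 300 to 1000 TPM class of 196 transcripts, 26 were higher and 55 lower in females, with a median of −0.24. Above 1000 TPM, 40 of 183 were higher and 39 lower, with a median of 0.29. In that class the called female-high transcripts included 11 of at least 16-fold, and the called female-low transcripts included none. With quantile normalisation the counts were 51 higher and 70 lower at 100 to 300 TPM, and 39 higher and 41 lower at 300 to 1000 TPM. The medians of these classes were then −0.079 and −0.037. At 1 to 5 TPM, 1091 were higher and 806 lower, against 991 and 983 with quantile normalisation. Below 1 TPM, 466 were higher and 246 lower, which turned to 315 higher and 464 lower with quantile normalisation. At 20 to 100 TPM, 181 were higher and 291 lower, which turned to 283 higher and 228 lower with the same normalisation. Without rescaling, 34 were higher and 99 lower at 100 to 300 TPM, and 28 and 53 at 300 to 1000 TPM. Below 1 TPM they were then 440 and 219, and at 20 to 100 TPM 184 and 259. These lay near the main counts, while above 1000 TPM 52 were higher and 36 lower.

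The 2 transcripts with the largest difference on each side are described one by one, chosen by a fixed rule among called transcripts that did not overlap between the sexes. ENSDART00000050238.5 was at 45500 and 64400 TPM in control, 80700 and 77900 TPM in alcohol and 116000 and 111000 TPM in withdrawal females. In males it was at 0.0276 TPM and listed at 0 in controls, at 0.0682 and 0.294 TPM under alcohol, and at 20.9 and 19.4 TPM after withdrawal. Every female value thus lay far above every male value, and in both sexes the withdrawal livers were the highest. The log2 difference was 14.71 (SE 0.53, limma adjusted p = 3.83e-08). It was 15.70 in control, 16.04 in alcohol and 12.39 in withdrawal livers (SE 0.18 each), and limma's F test of a sex difference that changes with exposure gave an adjusted p of 3.6e-05. This single transcript held 4.57% to 13.4% of the deposited TPM of a female liver.

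ENSDART00000113682.3 was at 22100 and 162000 TPM in control, 15000 and 15800 TPM in alcohol and 4910 and 5900 TPM in withdrawal females. In males it was at 0.0138 and 0.275 TPM in controls, listed at 0 in both alcohol livers, and at 1.28 and 0.493 TPM after withdrawal. The sexes did not overlap, and the 2 control female libraries lay further apart than those of the other groups. The log2 difference was 13.70 (SE 0.65, limma adjusted p = 3.97e-07), with 15.68 in control, 13.91 in alcohol and 11.51 in withdrawal livers (SE 0.73 each; F test, limma adjusted p = 0.0222). The difference after withdrawal was smaller than in controls by limma (log2 −4.17, adjusted p = 0.0103). Among the females the order of this transcript over the exposures was opposite to that of ENSDART00000050238.5.

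On the male side, ENSDART00000015232.9 was at 0.189 and 0.271 TPM in control, 1.56 and 1.71 TPM in alcohol and 0.284 and 0.134 TPM in withdrawal females. It was at 479 and 327 TPM in control, 436 and 309 TPM in alcohol and 271 and 301 TPM in withdrawal males. The male level was alike in the 3 exposures, and the highest female values were those under alcohol. The log2 difference was −7.79 (SE 0.22, limma adjusted p = 4.87e-09; F test, adjusted p = 0.0245). Between alcohol and control livers the sex difference itself was less negative by 1.21 on the log2 scale (limma adjusted p = 0.0178).

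ENSDART00000167332.1 was at 4.41 and 3.68 TPM in control, 1.69 and 2.03 TPM in alcohol and 0.275 and 0.936 TPM in withdrawal females. It was at 450 and 522 TPM in control, 52.2 and 117 TPM in alcohol and 36.8 and 45.5 TPM in withdrawal males. Both sexes were highest in controls, and the sexes did not overlap within or between exposures. The log2 difference was −5.38 (SE 0.34, limma adjusted p = 5.18e-06), with −6.59 in control, −4.79 in alcohol and −4.74 in withdrawal livers (SE 0.35 each; F test, limma adjusted p = 0.0179).

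**Figure D3:**
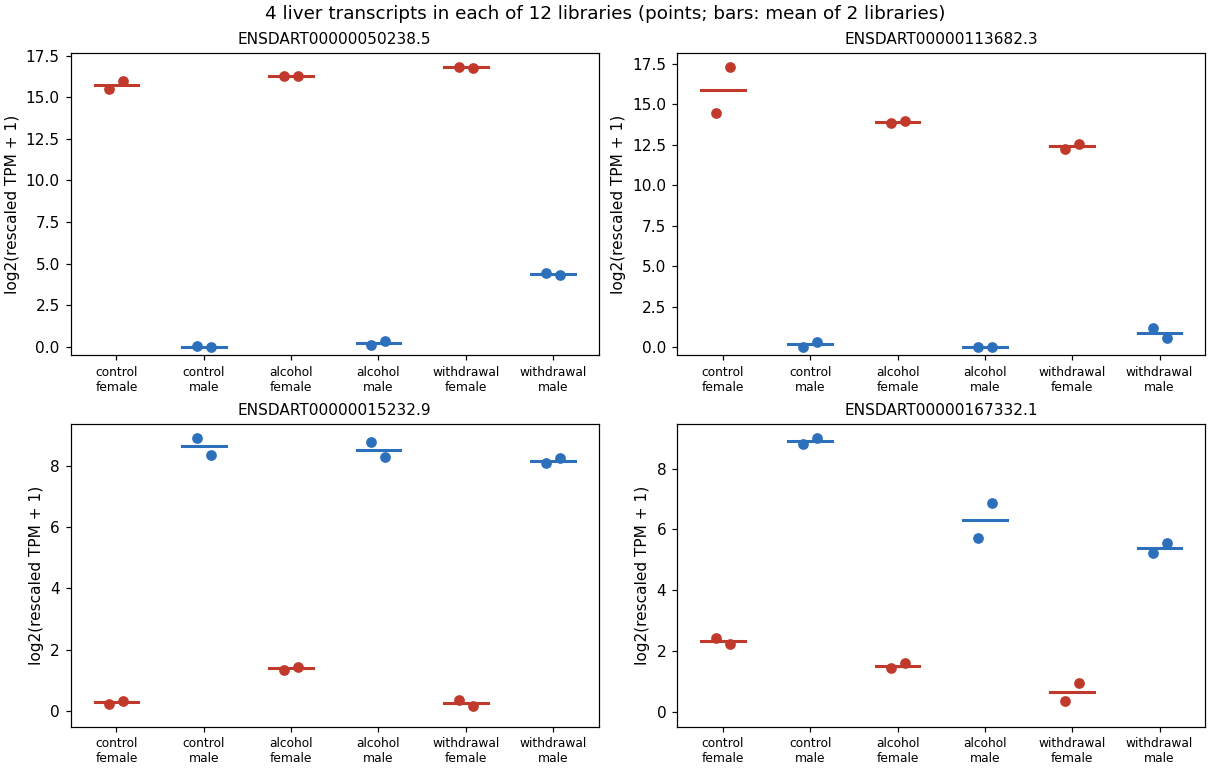
Level of 4 transcripts, as log2(rescaled TPM + 1) on the vertical axis, in each liver library (points) with the mean of the 2 libraries of a group (bars), females left of males in each exposure. The upper pair of transcripts is high in all 6 female livers and the lower pair in all 6 male livers, with no overlap between the sexes.

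A small group of transcripts with a wide gap between the sexes held a large share of female liver RNA. For 29 transcripts the lowest of the 6 female values was at least 10 TPM and at least 10 times the highest of the 6 male values, and for 3 transcripts the same held for males over females. The 29 averaged between 26.3 and 82530 TPM in female livers, with a median of 1176 TPM. In all 6 female livers, 22 of them reached 100 TPM and 8 reached 1000 TPM. In all 6 male livers 18 stayed below 1 TPM, 2 of the 29 were listed at 0 throughout, and the highest male value of any was 26.4 TPM. The 3 male-high transcripts averaged between 47.3 and 353.9 TPM in male livers.

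Together the 29 held 14.7% and 28.3% of TPM in the control female livers, 17.6% and 17.8% in the alcohol and 30.8% and 31% in the withdrawal female livers. Their summed TPM was 7.58 and 13 in control males, 63.3 and 23.3 in alcohol-exposed males and 69.3 and 73 in withdrawal males. The male sums were thus lowest in controls, and none exceeded 0.0073% of a library. By group mean in females, 11 were highest in control, 2 in alcohol and 16 in withdrawal females, and limma's F test called a sex difference that changes with exposure for 16 of the 29, a share near the 59.8% of all tested transcripts. The rule for the 29 used their sex difference, so these values are a description. Without the control livers 34 transcripts met the rule for females and 9 that for males. Without the alcohol livers these were 34 and 6, and without the withdrawal livers 138 and 9. The rule is easier to meet with fewer livers, but the same number was left out each time.

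Within a single exposure, the same 10-fold gap was met by more transcripts. Every transcript that met the rule over all livers also meets it within each exposure, and fewer libraries make it easier to meet. Counts at least as large were therefore set by the rule, and the counts below are a description. In control livers 358 transcripts were female-high and 215 male-high, of which 207 and 197 met the rule in no other exposure. In alcohol livers the numbers were 191 and 45, with 43 and 28 in no other exposure. In withdrawal livers they were 151 and 173, with 108 and 152 in no other exposure. Between exposures 10 transcripts switched from female-high to male-high or back.

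The sex difference was counted next in each exposure by itself, from contrasts of the 6 group means. Limma called 5804 transcripts higher and 5173 lower in control females than in control males at an adjusted p below 0.05, which is 51.9% of those tested (27.4% higher and 24.4% lower). In alcohol-exposed livers 3242 were higher and 3020 lower in females (29.6%, from 15.3% and 14.3%), and after withdrawal 4097 were higher and 4527 lower (40.8%, from 19.4% and 21.4%). A difference of at least 2-fold in either direction, whatever its test, was seen for 33.8% of transcripts in control, 17.2% in alcohol and 24.7% in withdrawal livers. The control contrast holds the control male livers that stood apart, and their part in its size was not tested. Without rescaling of the libraries the median sex difference in controls was 0.16 in place of 0.07, and limma called 5753 higher and 3838 lower.

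The alcohol counts fell to 1741 higher and 1542 lower without alcohol female replicate 2, and to 1784 and 1566 without replicate 1. The withdrawal counts fell to 2376 higher and 2483 lower without withdrawal male replicate 1. Leaving out withdrawal female replicate 1 gave 2596 higher, and leaving out replicate 2 gave 2504.

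The 3 exposures shared the direction of only part of these differences. The 3 contrasts share no library, though the rescaling and the estimate of spread use all 12. Across 21158 transcripts the female minus male log2 difference correlated with r = 0.425 between control and alcohol, 0.309 between alcohol and withdrawal and 0.129 between control and withdrawal. Transcripts share libraries and are not independent, so these are descriptions. Between alcohol and control, 3117 transcripts were called in the same direction, which is 49.8% of the alcohol and 28.4% of the control calls, and 865 in opposite directions. Between withdrawal and control, 2553 were called in the same direction (29.6% of the withdrawal and 23.3% of the control calls) and 1972 in opposite directions. Between withdrawal and alcohol, 2091 were called in the same direction (24.2% of the withdrawal and 33.4% of the alcohol calls) and 739 in opposite directions. Over all tested transcripts, 27.4% were called higher and 24.4% lower in control females, near the 29.6% of withdrawal calls shared with controls. In alcohol-exposed females these shares were 15.3% and 14.3%, and in withdrawal females 19.4% and 21.4%.

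**Figure D4:**
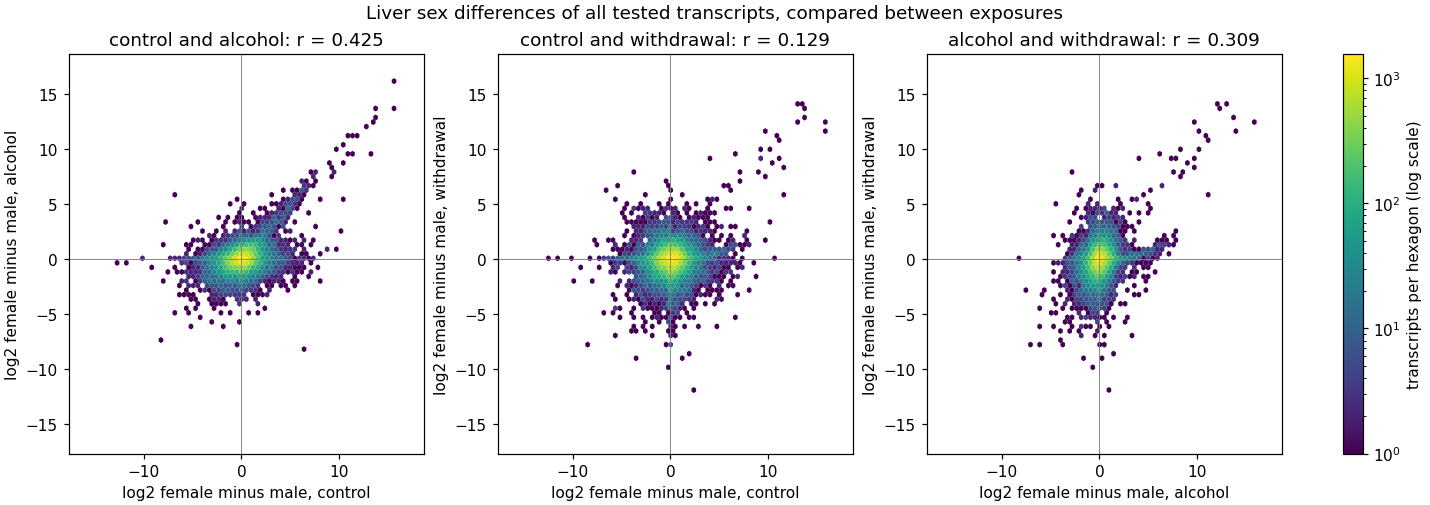
Female minus male log2 difference of 21158 liver transcripts in 1 exposure (horizontal axis) against another (vertical axis), with the number of transcripts per hexagon on a log colour scale. A thin arm of female-high transcripts lies along the diagonal of control and alcohol and runs flat, near 0, in withdrawal in the other panels.

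The changing direction was seen in the pattern of calls. No exposure gave a call for 4807 transcripts (22.7%), while 2242 were lower and 2053 higher in females in controls alone. In withdrawal alone 1713 were lower and 1381 higher, and in alcohol alone 596 were lower and 679 higher. A further 687 were lower in control females and higher in withdrawal females, with no call under alcohol, and 667 did the opposite. Of the 4097 transcripts higher in females after withdrawal, 1339 were also higher in control females (32.7%) and 922 were lower there (22.5%). These shares were near those over all tested transcripts, of which 27.4% were higher and 24.4% lower in control females. Of the 4527 lower in females after withdrawal, 1050 were higher in control females (23.2%). Opposite calls between control and withdrawal livers were thus no more frequent than the control calls over all tested transcripts.

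The test of the difference itself was limma's F test of 2 sex by exposure terms, at a Benjamini-Hochberg adjusted p below 0.05. It was not run without the control livers. It cannot be run with the 2 libraries of a group averaged, which leaves no spread. If these libraries are technical, its p-values do not cover differences between pools or tanks. It called 12663 transcripts, which is 59.8% of those tested. Among them were 2523 of the 4433 transcripts called over all exposures (56.9%) and 10140 that were not called there. Pairwise, the sex difference under alcohol exceeded that in controls for 3585 transcripts and lay below it for 3752 (34.7% called). After withdrawal it exceeded that in controls for 4813 and lay below it for 5858 (50.4%), and against alcohol it was higher for 3125 and lower for 3882 (33.1%). In 2831 transcripts (13.4%) limma called females higher in 1 exposure and lower in another. The F test had called all of them, but both come from the same fit of the same libraries. Opposite calls there nearly require an F call, so this adds no support. That count was 1840 without withdrawal female replicate 2.

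Sex accounted for 27.5% of the summed variation of all tested transcripts, exposure for 36.2%, sex by exposure for 26.4% and differences between the 2 libraries of a group for 9.78%. Among the 2354 transcripts with a mean of at least 20 TPM the sex share was 38.6%, against 31.3% for exposure, 24.3% for sex by exposure and 5.77% between libraries. Because the additive fit counts a sex difference that changes with exposure as spread, a fit of 6 group means called 5643 transcripts higher and 5476 lower in females on average over the exposures.

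A set of 176 transcripts was high in control and alcohol female livers and low in withdrawal female livers. They were chosen after their liver values were seen. In each of the 4 control and alcohol female livers they reached at least 5 TPM and at least 5 times the highest of the other 8 livers. Their median level was 18.8 and 20.0 TPM in control, 16.3 and 17.5 TPM in alcohol and 0.392 and 0.368 TPM in withdrawal female livers. The median was 0 in each of the 6 male livers, with 124 to 136 of the 176 listed at 0. The rule itself set the withdrawal females low. Withdrawal females still lay above the males, with summed TPM of 933 and 1070 in withdrawal females and 33.5 and 31.8 in withdrawal males. Only 26 and 32 of the 176 reached 1 TPM in these female livers, with a 90th percentile of 1.3 and 1.44 TPM. Limma called 78 of the 176 higher in females after withdrawal, and 19.4% of all tested transcripts. The rule chose the 176 from these same libraries and kept both sexes low after withdrawal. The 78 are therefore a description at low levels, and no test against the 19.4%. The set held 1.35% and 2.65% of TPM in control, 1.52% and 1.67% in alcohol and 0.0933% and 0.107% in withdrawal female livers.

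Other combinations of groups gave smaller sets by the same rule, apart from 1. In females, 36 transcripts stood above all males in all 3 exposures, and 4 did so in control, 17 in alcohol and 14 in withdrawal livers alone. Control and withdrawal females shared 1 such transcript, and alcohol and withdrawal females 2. In males, 184 stood out in control livers alone, 110 in withdrawal and 16 in alcohol livers alone, and 9 in all 3 exposures. Of the 65 transcripts at least 16-fold higher in females over all exposures, 29 were the wide-gap transcripts and 30 belonged to the set of 176, which share 1 transcript. Without both groups and the 3 male-high wide-gap transcripts, 2178 transcripts were called higher and 2049 lower in females.

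Brain libraries of the same groups (3 of control, 2 of alcohol and 2 of withdrawal females, and 2, 2 and 3 of the males), which took no part in choosing the set, were read for these 176 transcripts. The median was 8.14, 10.6 and 11.9 TPM in control, 14.9 and 14.3 TPM in alcohol and 90.7 and 115 TPM in withdrawal female brains. In male brains it was 0 and 0.1 TPM in control, 0 in both alcohol and 0.155, 0.118 and 0.127 TPM in withdrawal libraries. Withdrawal females were the highest of the female groups in brain, while their low level in liver was fixed by the rule. Of the 176, 166 had their highest female group mean over both tissues in withdrawal brain. Liver and brain were rescaled separately, so this ranking crosses unlike scales. TPM was divided by 2.04 to 2.18 in alcohol brains and by 0.638 to 0.946 in withdrawal brains. In brain 173 passed the filter on low values, and limma called 164 of them higher in females over all exposures at an adjusted p below 0.05 and none lower, where 2.43% of all tested brain transcripts were called higher. The 7 female brain values all lay above the 7 male values for 160, as they did for 414 of the 19361 transcripts tested in both tissues, and 132 stayed below 1 TPM in all 7 male brains. These 132 could pass the filter only through female brains, so the lack of lower calls among them is no result. With the brains of 1 exposure left out, limma called 168 without control, 149 without alcohol and 157 without withdrawal brains.

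The set held 2.52% and 3.71% of TPM in the 2 withdrawal female brains, against 0.0667%, 0.06% and 0.0655% in the withdrawal male brains. Correlations over the 176 transcripts used log2(TPM + 0.1) in females, in place of the 1 added elsewhere. Control and alcohol female livers correlated with r = 0.949, control liver and control brain with 0.721, and control brain and withdrawal brain with 0.749. Alcohol female liver and alcohol female brain correlated with 0.359, and control liver and alcohol brain with 0.37. Withdrawal brain correlated with control liver at 0.512 and with alcohol liver at 0.515. These correlations are over transcripts chosen for their liver level and are a description. The parts of other cell types or of other tissue in these libraries were not tested, since no marker could be read.

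**Figure D5:**
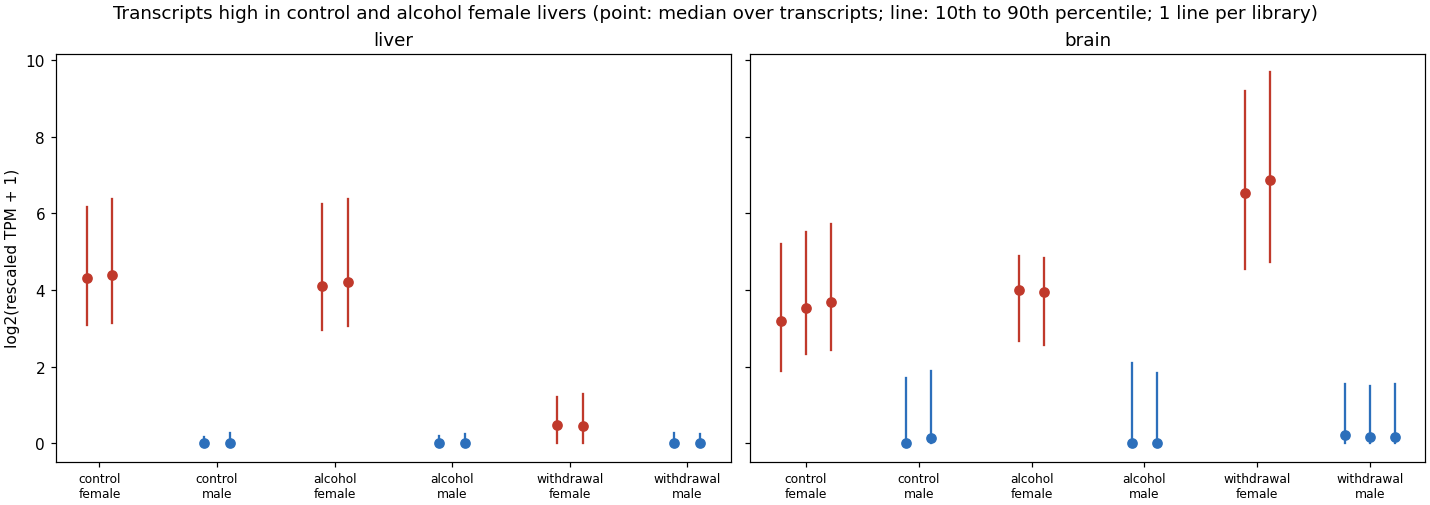
Median (points) and 10th to 90th percentile (lines) of log2(rescaled TPM + 1) over the 176 transcripts, with 1 line per library, in liver (left) and brain (right), females left of males in each exposure. The withdrawal female medians are 0.392 and 0.368 TPM in liver, where the rule kept them low and the male medians are 0, and 90.7 and 115 TPM in brain, above all other groups.

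Over all transcripts, female-high liver calls were met in the brain more often than female-low ones, and the brain also had more female-high calls. The alcohol brains stood apart in scale, with TPM divided by 2.04 to 2.18 in the rescaling, against 0.60 to 0.946 in the other brains. With sex and exposure as additive terms, the brain had 890 transcripts higher and 135 lower in 7 female than in 7 male libraries, 2.79% of 36682 tested by limma (0.368% lower). Of the 2381 transcripts higher in female livers, 2275 were tested in brain, and 481 of these were higher in female brains (21.1%) and none lower. Of the 2052 lower in female livers, 1885 were tested in brain, with 27 higher (1.43%) and 19 lower (1.01%). Among all 19361 transcripts tested in both tissues the shares were 3.87% higher and 0.413% lower. The 481 made up 64.2% of the 749 female-high brain transcripts that were also tested in liver, where 2275 of the 19361 transcripts were female-high in liver. On the other side, 19 of the 80 female-low brain transcripts tested in liver were female-low there (23.8%), where 1885 of the 19361 transcripts were female-low in liver. Both sides were thus above their share over all transcripts.

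These 481 shared transcripts were at a median of 4.94 TPM in female and 0.0386 TPM in male livers, against 4.02 and 1.70 TPM for the 1794 that were called in liver alone. The F test of a liver sex difference that changes with exposure had called 88.4% of the 481. That compares with 50.1% of the 1794 and 59.6% of all transcripts tested in both tissues. The 481 overlap widely with the set of 176, of which 175 were called in liver and 164 were called higher in brain. The F test had called all 176, and their rule itself asked for a change with exposure, so these members raise the 88.4%. The 481 themselves were not chosen by that rule. The F test had called 425 of them, more than the set of 176 holds. Their share without the members of the set was not computed. Across the 19361 transcripts the sex differences of liver and brain correlated with r = 0.586 in control, 0.416 in alcohol and 0.142 in withdrawal fish. Whether liver and brain libraries came from the same fish is not given in the sources used here. Without the control brains, 4192 brain transcripts were called higher and 3219 lower in females, and without the alcohol brains 388 and 32. With quantile normalisation 801 were higher and 307 lower.

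The 29 wide-gap liver transcripts were much weaker in brain, where 25 of them were tested and limma called 14 higher in females and none lower, where 3.87% of all transcripts tested in both tissues were higher and 0.413% lower. Their median was 9.93, 9.81 and 12.4 TPM in control, 1.71 and 1.91 TPM in alcohol and 1.58 and 0.531 TPM in withdrawal female brains. In male brains it was 0 and 0.267 TPM in control, 0 in both alcohol and between 0.148 and 0.359 TPM in withdrawal libraries. Their summed deposited TPM lay closer between the sexes. It was 2110, 1820 and 2070 in control females and 1100 and 953 in control males, 1030 and 1100 in alcohol females and 581 and 484 in alcohol males, and 1100 and 870 in withdrawal females and 779, 734 and 766 in withdrawal males. In each exposure the female sums were above the male sums.

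ENSDART00000050238.5 was at 303, 255 and 362 TPM in control, 55.0 and 58.3 TPM in alcohol and 21.2 and 6.79 TPM in withdrawal female brains. In male brains it was at 0.159 and 3.95 TPM in control, 0.401 and 0.313 TPM in alcohol and 11.3, 11.4 and 11.8 TPM in withdrawal libraries. Withdrawal females and withdrawal males overlapped, and both tissues of withdrawal males were above those of the other males. ENSDART00000113682.3 was at 214, 178 and 131 TPM in control, 56.1 and 76.0 TPM in alcohol and 198 and 54.9 TPM in withdrawal female brains. In male brains it was listed at 0 and at 38.3 TPM in control, listed at 0 in both alcohol and at 6.67, 4.74 and 4.65 TPM in withdrawal libraries. ENSDART00000015232.9 was at 0.154 TPM or less in every female brain, against at most 1.73 TPM in male brains, and ENSDART00000167332.1 stayed between 0.644 and 2.23 TPM in female and between 1.33 and 2.86 TPM in male brains. Both of these transcripts were thus low in the brains of both sexes, whereas the 1885 transcripts called lower in female livers had a median of 9.65 TPM in brain.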

How the data were processed

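RNA of pooled tissue was sequenced from non-stranded libraries, per the labels' protocols. The tools named are FastQC 0.11.7, STAR 2.5.2 (an aligner) and RSEM 1.3.1 (which estimates transcript abundance), with the danRer10 build, per the submitters' processing notes. The authors deposited TPM for 57918 transcripts, which sums to 1 fixed total per library and keeps no depth. A transcript was tested where 2 or more of the 12 livers had 1 TPM or more, which left 21158, of which 61 had the same values as another. TPM was divided by the median of ratios over the 14468 tested transcripts above 0 in all 12 (divisors 0.81 to 1.20 in female and 0.725 to 1.23 in male livers). The brain was handled alike.

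limma 3.58.1 in R 4.3.3, with a variance trend, was fitted to log2(TPM + 1), with sex and exposure as additive terms (8 residual degrees of freedom), or with 6 group means (6 residual degrees of freedom) for single exposures and the F test. Benjamini-Hochberg adjustment ran over all tested transcripts, with calls below 0.05. Levels are rescaled TPM, and shares and sums use TPM as deposited. Plots used Python 3.11.15 and matplotlib 3.10.9.

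In simulated data over 21158 transcripts, only 67, 67 and 66 were given a difference of 0.5, 1 and 2 log2 units. All of these had a mean level above 5 TPM, and each simulated library varied independently. The additive fit recovered 1.49%, 32.8% and 97% of these sex differences, with 3 false calls (3.33% of its calls). The F test recovered 0%, 10.4% and 87.9% of the same sizes of change, with 5 false calls (7.14% of its calls). The real livers have far more calls, many of them at lower levels, and their paired libraries may be technical. These rates therefore do not give the share of false calls in the real data.

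The named transcripts are the 2 with the largest log2 difference in each direction among those called, not overlapping between the sexes, of the same sign in each exposure and with a mean of at least 10 TPM in the higher sex. The comparison, the lists and the rules were chosen with earlier results of these data known, and the rules for the 29 and the 176 transcripts after their values were seen. Gene lists and cell type markers could not be read without gene names and were not used. Alternatives changed the rescaling, the 1 added to TPM, the filter, the model and the libraries.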

Additional observations from a re-analysis of the deposited data

Results flagged for a closer look

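Limma's F test of the sex by exposure terms called 12663 liver transcripts (59.8% of those tested) at an adjusted p below 0.05. Tissue was pooled within groups, and the 2 libraries of a group may be technical. Differences between pools or tanks could then not be told apart from a sex difference that changes with exposure. In 2831 of the tested transcripts (13.4%), females were called higher in 1 exposure and lower in another. How many such transcripts unrelated sex differences would give was not tested.

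The same test of a difference between exposures was passed by each of the 4 named transcripts, and by 59.8% of all tested transcripts. Its adjusted p was 3.6e-05 for ENSDART00000050238.5 and 0.0222 for ENSDART00000113682.3, both female-high in every exposure. It was 0.0245 for ENSDART00000015232.9 and 0.0179 for ENSDART00000167332.1, both male-high in every exposure. In these 4 the size of the sex difference changed. The rule that chose them asked for the same sign in each exposure, so their unchanged direction is no result.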

How the results depend on the processing

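The depth of the libraries is unknown, each group had 2 liver libraries, and the 2 may be technical. The number of calls over all exposures depended on how spread was counted. It was 5643 higher and 5476 lower in females with 6 group means, 29 and 4 with the 2 libraries of each group averaged, and 1524 higher without the alcohol livers. Leaving out 1 library at a time gave 1741 to 3332 higher and 1542 to 3026 lower under alcohol, 2376 to 4414 higher and 2483 to 4900 lower after withdrawal, and 1840 to 3107 called in opposite directions. The wide gap, which is easier to meet with fewer libraries, held for 138 female-high transcripts without the withdrawal livers. It held for 34 without the control livers and for 34 without the alcohol livers, with the same number of libraries left out. It held for 9, 6 and 9 male-high transcripts without the control, alcohol and withdrawal livers. With a gap of 5-fold, chosen after seeing the data, it held for 7 male-high transcripts. The set high in control and alcohol females became 34 when at least 1 TPM in at least 6 libraries was asked, since most members reach 1 TPM in 4. Between 149 and 170 of the set were called higher in brain over 22 settings. The brain counts were 3533 higher and 2107 lower with 6 group means. Without the control brains, also chosen after seeing the data, they were 4192 and 3219, and without the alcohol brains 388 and 32. Brain transcripts lower in females numbered 463 without the withdrawal brains, 307 with quantile normalisation and 52 to 186 with 1 library left out. The female minus male difference of the top 10 share, −0.886 percentage points, was 1.05 without the alcohol livers and between −2.24 and 0.469 with 1 library left out. The top 100 share was 2.70 to 4.36 points higher in females with 1 library left out. The adjusted p of its permutation test was 0.037 without control female replicate 1. That share was 2.61 points higher in females without the withdrawal livers and 4.74 without the control livers. The calls in control livers stayed within 1.5 times of their count in all 20 settings, and the F test called 9364 to 13578. The 4 named transcripts, chosen for the largest differences without overlap, kept direction and limma call in all 25 settings, with a highest adjusted p of 0.0378.

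The replicate numbers of the labels are only shared numbers. Deviations of same-numbered female and male libraries correlated with 0.0128 in control, −0.0206 in alcohol and 0.0182 in withdrawal livers. With the number as a replicate block, limma called 1928 transcripts higher and 1700 lower in female livers, and 674 higher and 54 lower in female brains.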
